A study of Mus musculus with 3 samples.

Results

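Gdf10 Fmo2 stromal cells are a small fibroblast-like group in the stromal vascular fraction of mouse inguinal white fat, and 192 of the 20667 barcodes in 3 single-cell libraries met their definition. A barcode was counted as a member when it had at least 500 genes, at most 15% of its unique molecular identifiers (UMIs, counted transcripts) from mitochondrial genes, and at least 20 UMIs in total of the matrix genes Col1a1, Col1a2, Col3a1 and Dcn. It also had 0 UMIs of the leukocyte, endothelial and pericyte genes Ptprc, Pecam1 and Rgs5, at least 2 UMIs of Gdf10 and Fmo2 together, and at most 1 UMI each of Pi16 plus Dpp4, of Col15a1 and of Lcn2 plus Cxcl5. The libraries came from C57BL/6 mice that received saline, were kept in the cold at 4 °C for 3 days, or were given CL 316,243 (CL below), an agonist of the β3-adrenergic receptor, at 1 mg/kg into the peritoneum for 3 days. Cells were freed with a tissue dissociation kit and captured with the 10x Chromium 3' v3 chemistry, with 1 library per treatment. The age, the sex and the number of animals behind each library are not given in the sources used here.

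Stromal progenitors of white fat are divided by surface genes into a Dpp4 and Pi16 population of the interstitial spaces, committed preadipocytes, and another group marked by the coagulation receptor F3 (CD142, tissue factor) that has been described as restraining fat cell formation in its neighbours. Gdf10 encodes a secreted member of the bone morphogenetic protein (BMP) family within the TGF-β superfamily, and Fmo2 encodes a flavin-containing monooxygenase. In the mm10 build with GENCODE M21, the protein-coding gene Gdf10 spans chr14:33923587-33937983 on the plus strand and Fmo2 chr1:162874317-162898726 on the minus strand. BMP signals steer progenitors towards the fat lineage, and secreted antagonists such as Chrdl1 and Mgp bind the ligands outside the cell. Catecholamines released in the cold act on fat cells through β3-adrenergic receptors, which CL stimulates directly.

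With 1 library per treatment no test between treatments was possible: cells of a library are not replicates, and the exact sign test over 3 libraries cannot go below p = 0.25. Every comparison is therefore a description by size. Levels are UMIs summed over the member cells of a library and given as UMIs per 1000000 (CPM, counts per 1000000 UMIs), and a gene is called higher or lower where the CPM ratio passes 2-fold. The intervals in this text are exact 95% intervals for counting error only, and they are too narrow for genes whose UMIs lie in few cells. The libraries held 5050 to 7943 barcodes and 19899223 to 29323106 UMIs, and 3862 to 6705 barcodes passed the gene and mitochondrial limits. Between 9 and 14 barcodes occurred in both libraries of a pair, and none of them was a member.

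The saline library held 76 members, the cold library 71 and the CL library 45. Their depth was similar, with a median of 6135.5 UMIs per member in saline, 6141 in cold and 6512 in CL, and the members gave 416987, 440061 and 267626 UMIs in all. Members made up 6.99% of the 1088 gated stromal cells in saline (exact binomial interval 5.54 to 8.67%), 14.4% of 492 in cold (11.4 to 17.9%) and 5.06% of 889 in CL (3.72 to 6.71%). Stromal cells with at least 3000 UMIs were also thinned to 3000, and the limits on Gdf10 plus Fmo2 and on the other populations' genes were applied again. This gave 8.01% of 1011, 14.7% of 457 and 5.86% of 819 cells. The 77, 35 and 70 shallower stromal cells were left out. The cold interval lies above the other 2. These shares describe the outcome of the gate, because Fmo2, a gene of the gate, also differed between libraries. Among members, Fmo2 stood at 324 CPM in saline, 534 in cold and 471 in CL, whereas Gdf10 stood at 806, 861 and 799.6 CPM. The limits on other genes removed different numbers of cells as well: of the 226, 156 and 137 stromal cells with at least 2 UMIs of Gdf10 and Fmo2, the Lcn2 plus Cxcl5 limit failed 1 in saline, 1 in cold and 13 in CL, the Pi16 plus Dpp4 limit failed 74, 39 and 28, and the Col15a1 limit failed 81, 48 and 64, with some cells failing more than 1 limit. Whether fewer cells or less RNA of the gate genes per cell lies behind a lower share cannot be told apart.

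**Figure D1:**
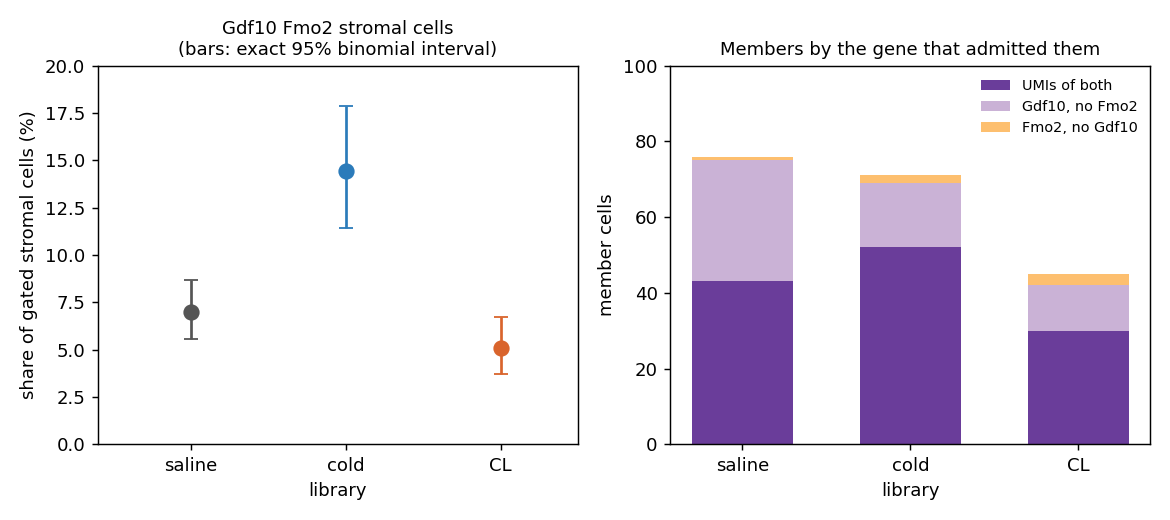
Share of gated stromal cells that were members, in percent, with exact 95% binomial intervals (left), and the number of members by which of the 2 defining genes they held (right), for the saline, cold and CL libraries. The cold share of 14.4% lies above 6.99% in saline and 5.06% in CL, and most members held UMIs of both genes in each library.

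Nearly all members held UMIs of Gdf10. UMIs of both genes were found in 43 members in saline, 52 in cold and 30 in CL, or 56.6%, 73.2% and 66.7%, while 32, 17 and 12 members held Gdf10 alone and only 1, 2 and 3 held Fmo2 alone. The gate sat in the low range of these sums: 19, 9 and 9 members had exactly 2 UMIs, and 35, 16 and 17 stromal cells that met every other limit had exactly 1. Just inside the limit, Clec11a stood at 105 CPM in saline, 20.4 in cold and 184 in CL, against 30.4, 73.5 and 28.7 CPM just outside. Gas6 stood at 653, 347 and 959 CPM just inside and at 567, 514 and 115 CPM just outside. In saline and CL the cells inside were higher for both genes, and in cold the cells outside were. Members with 3 or more UMIs had 190, 215 and 201 CPM of Clec11a and 1177, 2846 and 1327 CPM of Gas6, above the cells at the limit in each library. Other genes did not follow the sum in this way: Mgp in saline stood at 933 CPM just inside the limit and at 368 CPM in members with 3 or more UMIs, and Inmt in saline at 665 CPM just inside and 668 CPM just outside. Chrdl1 stood at 23.3 CPM in saline and 61.2 in cold just inside, below 106 and 220 CPM just outside. In CL it stood at 530 CPM just inside and 86.2 CPM just outside. Saline cells that met the other limits and held 0 UMIs of Gdf10 and Fmo2 still had 496 CPM of Gas6.

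The label was checked on 4 genes that the gate did not use: Inmt, Chrdl1, Mgp and Cilp. Inmt, which encodes indolethylamine N-methyltransferase, stood at 875 CPM in saline, 1441 in cold and 695 in CL, against 143, 297 and 88.0 CPM in the Pi16 Dpp4 cells and 269, 165 and 121 CPM in the Col15a1 cells of the same libraries. These comparison cells were gated in the same way, with at least 2 UMIs of Pi16 plus Dpp4, or of Col15a1, and at most 1 of the other sums. Chrdl1, a chordin-like BMP antagonist, reached 465, 525 and 620.3 CPM in members, 88.0, 198 and 124 CPM in Pi16 Dpp4 cells and 9.55, 5.63 and 11.7 CPM in Col15a1 cells. Mgp, matrix Gla protein, an inhibitor of calcification that also binds BMPs, reached 484, 661 and 441 CPM in members and 1.97 to 46.7 CPM in the other populations. All 3 genes were past 2-fold over both populations in each library. Cilp, which encodes a cartilage matrix protein, gave no such picture, since its UMIs lay in 3 members in saline, 3 in cold and 4 in CL, and 69 of the 75 UMIs in cold came from 1 cell. Inmt, Chrdl1 and Mgp were thus high in the sum of cells chosen on Gdf10 and Fmo2, and Cilp was a gene of a few cells. For Chrdl1 this did not hold for members at the limit of 2 UMIs in saline and cold, with 23.3 and 61.2 CPM. As the gate chose the cells from the same libraries, these ratios are a description and no test.

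B cells served as a reference for RNA that is free in the suspension. After thinning to 3000 UMIs, Mgp was found in 26.7%, 50.8% and 40.5% of members against 3.56%, 0.792% and 1.72% of B cells in saline, cold and CL, and Inmt in 66.7%, 78.0% and 64.9% of members against 2.37%, 0.594% and 3.45% of B cells. Between 58 and 505 B cells per library reached that depth, from a median of 1852.5, 2670 and 1900 UMIs per B cell, and 37 to 60 members did. Gas6 was found in 63.3%, 72.9% and 75.7% of thinned members and in 6.72%, 1.98% and 5.17% of B cells. The member shares are far above the reference for each of the 3 genes.

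Genes that set the members apart from both other populations in all 3 libraries were few. Of 1403 genes that reached 50 UMIs in either cell group in each of the 6 comparisons, 18 were at least 2-fold higher in members in all 6 (1.28%) and 6 were at least 2-fold lower (0.428%). A gene could reach that minimum through only the group where it was high. Both counts are thus partly set by the filter and are a description. With a mitochondrial limit of 5% the higher genes numbered 11. They include secreted factors, complement components, and genes of the F3 stromal group. F3 itself, the receptor that starts the extrinsic coagulation pathway, stood at 137 CPM in saline, 216 in cold and 209 in CL, against 9.22, 7.29 and 3.44 CPM in Pi16 Dpp4 cells and 31.3, 35.6 and 66.2 CPM in Col15a1 cells. Clec11a, a secreted C-type lectin known as a growth factor for bone-forming cells, stood at 173, 193 and 198 CPM in members. Its level was 2.46 to 3.91 CPM in Pi16 Dpp4 cells and 11.3 to 15.6 CPM in Col15a1 cells, and its smallest log2 ratio over the 6 comparisons, 3.64, was the highest of all genes tested.

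Secreted ligands with high levels in members were Gas6 and Cxcl12. Gas6 encodes the ligand of the receptor kinases Tyro3, Axl and Mertk, which take part in the clearance of dying cells. Its level was 1069.6 CPM in saline, 2568 in cold and 1259 in CL, and no library of either other population exceeded 109 CPM. Cxcl12, the chemokine ligand of Cxcr4 that holds leukocytes and progenitors in stromal niches, stood at 883, 1027 and 915 CPM in members, 36.3, 37.1 and 97.8 CPM in Pi16 Dpp4 cells and 219.7, 274 and 334 CPM in Col15a1 cells. The members' order over libraries was flat for Cxcl12, with overlapping counting intervals, and the same gene was highest in CL in both other populations. Sfrp2, a secreted Wnt modulator, also passed the limit, with 1036, 1554 and 2324 CPM in members against 476, 601 and 419 CPM in Pi16 Dpp4 cells and 28.1 to 55.8 CPM in Col15a1 cells.

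Of the 7 complement genes measured in all comparisons, C2 and C7 passed 2-fold over both populations, as 1.28% of all genes tested did. C2, the protease zymogen of the classical pathway, stood at 556 CPM in saline, 845 in cold and 751 in CL. Pi16 Dpp4 cells had at most 21.8 CPM of C2 in saline and cold and 109 CPM in CL, and Col15a1 cells had 85.1, 76.9 and 222 CPM, so that the log2 ratio was smallest in CL, at 2.78 and 1.76. C7, a component of the membrane attack complex, stood at 307, 632 and 291 CPM in members, 119, 147 and 79.6 CPM in Pi16 Dpp4 cells and 44.3, 30.0 and 14.3 CPM in Col15a1 cells. The 2 genes thus differed in the population that came nearest to the members.

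Extracellular and cell surface proteins made up most of the other named genes. Abi3bp, a matrix protein, stood at 1103, 1177 and 1412 CPM in saline, cold and CL, at least 1.72 above either population on the log2 scale. The smallest log2 ratio was 1.66 for Ppl (periplakin, a linker of intermediate filaments to junctions), 1.32 for Cd9 (a tetraspanin), 1.25 for Gpnmb (a membrane glycoprotein) and 1.22 for S100a4 (a calcium-binding protein). Cst3, the secreted cysteine protease inhibitor cystatin C, came closest to the limit, with a log2 ratio of 1.00 over Col15a1 cells in CL. UMIs of Cst3 lay in 75 of 76, 70 of 71 and 44 of 45 members and those of Abi3bp in 70, 68 and 42. Other genes of the set were found in fewer cells, in saline in 31.6% of members for Mgp, 40.8% for F3 and 42.1% for Clec11a, before any thinning.

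**Figure D2:**
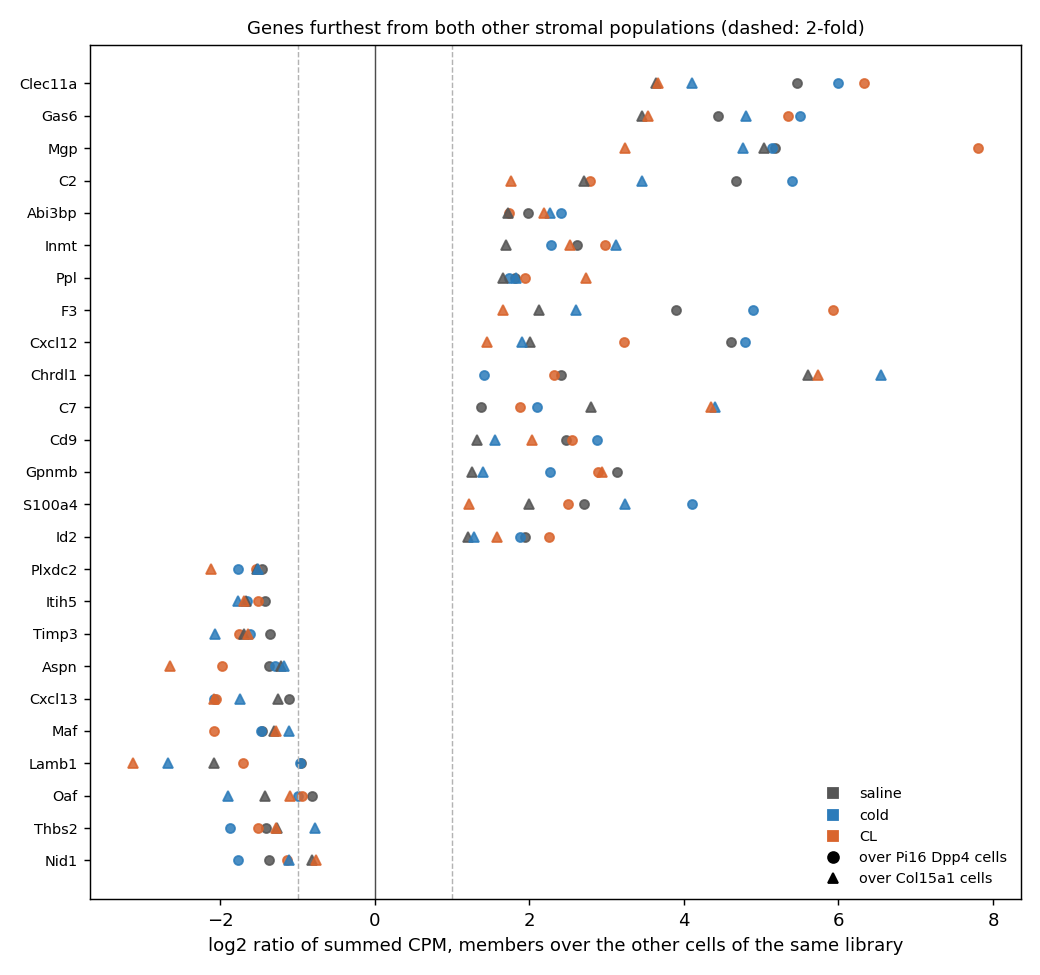
Log2 ratio of summed CPM in members over Pi16 Dpp4 cells (circles) and over Col15a1 cells (triangles) for 25 genes named by rank, coloured by library, with dashed lines at 2-fold. All 6 points of each upper gene lie right of the 2-fold line, from Clec11a (smallest log2 ratio 3.64) to Id2 (1.21), and 6 of the 10 lower genes lie left of it throughout.

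Of 11 listed genes of the F3 stromal group, 6 were measured in all comparisons and 5 of these were at least 2-fold higher in members in all 6, where 1.28% of all genes tested were. F3, Clec11a and Mgp reached the 50 UMIs through the members in several or all comparisons, so the filter partly sets this count, which is a description and no support. The 5 were F3, Clec11a, Inmt, Mgp and Chrdl1, with Cygb above 0 throughout but only 0.16 to 0.56 above Col15a1 cells on the log2 scale. Cygb encodes cytoglobin, an oxygen-binding protein of fibroblasts. Meox2, a homeobox transcription factor, and Vit, the matrix protein vitrin, had too few UMIs for that set: Meox2 stood at 101, 152 and 176 CPM and Vit at 182, 173 and 179 CPM in members, against at most 16.9 CPM and 40.8 CPM in either population. Igfbp3, also outside that set, was found after thinning in 10%, 18.6% and 24.3% of members in saline, cold and CL. Pi16 Dpp4 cells held it in 8.18%, 17.3% and 5.45%, so the shares were alike in saline and cold. Cilp, another listed gene, lay in few cells. Inmt, Mgp and Chrdl1 had been listed as markers of these cells from these same libraries, so their place in the count is not independent.

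Genes of BMP signalling were measured unevenly by role. Of 17 ligands listed beside Gdf10, none had enough UMIs for the comparison with both populations, and only Tgfb2 reached 20 UMIs in a library, with 17 UMIs in saline, 23 in cold and 9 in CL. Of 10 modulators measured, Chrdl1 and Mgp were past 2-fold, as 1.28% of all genes tested were. The median log2 ratio of the list was 0.28, beside -0.06 over all genes. Chrdl1 and Mgp had been listed as markers of these cells, and Mgp reached the UMI minimum partly through the members, so this count is no support. The 2 receptors measured had a median log2 ratio of -0.04. Of 3 target genes measured, Id2 and Tgfbi passed 2-fold in all 6 comparisons, as 1.28% of all genes tested did. The third, Id3, was above 0 in all 6. Target genes too could reach the UMI minimum through the members, so their count is no support. Id2 and Id3 encode inhibitors of helix-loop-helix factors that BMP signals induce in many cells. Id2 stood at 254, 227 and 220.5 CPM in members against 46.2 to 65.9 CPM in Pi16 Dpp4 cells and 74.0 to 110.3 CPM in Col15a1 cells.

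The 6 genes at least 2-fold lower in members than in both populations in each library were Plxdc2, Itih5, Timp3, Aspn, Cxcl13 and Maf. Timp3, a matrix-bound inhibitor of metalloproteinases, stood at 312 CPM in saline, 270.4 in cold and 142 in CL, against 802, 828 and 482 CPM in Pi16 Dpp4 cells and 1009, 1140.2 and 445 CPM in Col15a1 cells. Itih5, an inter-alpha-trypsin inhibitor heavy chain that binds hyaluronan, stood at 239.8, 225 and 202 CPM, against 576 to 711 CPM and 654 to 769 CPM. Aspn encodes asporin, a small leucine-rich proteoglycan, and had 122, 134 and 63.5 CPM in members and 251 to 399 CPM in the others. Of 9 basement membrane genes measured, none passed 2-fold in all 6 comparisons, yet 5 were below 0 throughout. Their median log2 ratio was -0.63, beside -0.06 over all genes. Lamb1, a laminin chain, had log2 ratios of -1.70 and -3.13 in CL, and for Nid1, which links laminin and collagen networks, the ratio nearest to 0 was -0.77.

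Tspan11, Clec11a and Mgp had the pattern most like that of Gdf10 across the stroma. Pearson's r of log2(CPM + 10) over 15 sums, 5 stromal populations in each of 3 libraries, was 0.95 for Tspan11 (a tetraspanin), 0.94 for Clec11a, 0.94 for Mgp, 0.91 for Gas6 and 0.91 for Ralgps2, among 8809 genes with at least 100 UMIs. For Fmo2 the list was led by Clec11a at 0.94 and Mgp at 0.92. The sums share libraries and depth, and the members were chosen on Gdf10 and Fmo2, so these values are a description. Tspan11 stood at 64.8, 93.2 and 59.8 CPM in members and at no more than 7.81 CPM in the other 2 populations.

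Within the members, cells with UMIs of both genes were compared with cells that held Gdf10 and no Fmo2, a comparison chosen after the numbers of cells were seen. Of 1041 genes with at least 20 UMIs in either group in each library, 5 were at least 2-fold higher in the first group in all 3 libraries (0.48%) and 5 were at least 2-fold lower (0.48%). Genes could reach that minimum through only the group where they were high, and the split used Fmo2, a gene of the gate. Both counts are thus a description and no support. The 5 higher genes were Chrdl1, Sfrp2, Cpz, Rbp4 and Timp1, and the 5 lower ones were Postn, Ccl2, Col5a3, Itih5 and Efemp1. Chrdl1 stood at 682 CPM in saline, 659 in cold and 786 in CL where both genes were found, and at 220.3, 161 and 261 CPM with Gdf10 alone. Sfrp2 stood at 1454, 1977 and 3120.3 CPM against 540.3, 467 and 836 CPM.

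Postn, which encodes the matrix protein periostin, went the other way, at 85.3, 47.3 and 99.7 CPM with both genes and 299, 578 and 366 CPM with Gdf10 alone. Col5a3, a fibrillar collagen chain, stood at 372, 268 and 276 CPM against 1059.5, 1155.5 and 627 CPM. The cells with both genes were thus further from the other stromal populations for Chrdl1, Sfrp2 and Itih5. Gdf10-only cells have fewer UMIs of the 2 defining genes by construction, and 17 and 12 such cells in cold and CL carry those values.

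Markers of other cell types differed in how far they were found in members. The 6 T cell genes gave 2.40 CPM in saline and 0 in the other libraries, the 5 epithelial genes gave 0 in all 3, and the 5 mesothelial genes gave 0, 0 and 3.74 CPM. The 6 adipocyte genes summed to 4.80, 4.54 and 7.47 CPM and the 6 skeletal muscle genes to 7.19, 4.54 and 3.74 CPM. The 7 B cell genes summed to 62.4, 90.9 and 71.0 CPM, against 2956 to 7719 CPM in barcodes outside the stromal gate. The 8 macrophage genes summed to 43.2, 13.6 and 119.6 CPM in saline, cold and CL, against 3274 to 13429 CPM outside the gate. The 7 endothelial genes, Fabp4 among them, summed to 52.8, 202 and 105 CPM, against 1389 to 3916 CPM outside, and 5 of the 7 were at 0 in saline and cold and 4 in CL. Other lists came nearer to their level outside the gate or passed it. The 7 Schwann cell genes summed to 273, 332 and 288 CPM in members and to 446, 726 and 199 CPM outside, with a UMI in 64.5%, 77.5% and 71.1% of members, and Scn7a, a sodium channel gene, alone gave 239.8, 293 and 232 CPM. The 8 pericyte and smooth muscle genes summed to 103, 102 and 101 CPM against 217, 94.4 and 70.4 CPM outside, of which Abcc9, a potassium channel subunit, gave 71.9, 72.7 and 71.0 CPM. The 6 lymph node reticular genes summed to 81.5, 45.4 and 89.7 CPM against 122, 56.5 and 203 CPM outside. The 7 tendon and dermal fibroblast genes were above the level outside, at 146, 120.4 and 37.4 CPM against 11.2, 14.1 and 8.73 CPM, with 4, 3 and 4 of the 7 at 0. Comp, a cartilage matrix protein, gave 86.3, 38.6 and 18.7 CPM of that sum, and 24 of its 36 UMIs in saline lay in 1 cell. The 5 erythroid genes summed to 326, 973 and 972 CPM. They were higher outside the gate, at 2556, 2440 and 1928 CPM, and in Pi16 Dpp4 cells, at 1622, 1051 and 2590 CPM. In cold all 4 globin genes measured were at least 2-fold above saline, as were 3.99% of all genes at 20 UMIs. All 3 erythroid genes measured for CL over saline were at least 2-fold higher in CL, as were 5.2% of all genes. In CL, 137 of the 161 Hbb-bs UMIs lay in 1 cell. The part of these markers in the results below was not tested, and globin genes were left out of the genes ranked.

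Cold exposure went with higher Gas6 and lower inflammatory transcripts in the members. Of 1174 genes that reached 50 UMIs in either library, 24 were at least 2-fold higher in cold than in saline (2.04%) and 48 were at least 2-fold lower (4.09%). Gas6 was 2.40-fold higher in cold, from 446 UMIs in 56 cells to 1130 UMIs in 59 cells, with a log2 ratio of 1.26 (1.10 to 1.42). Its log2 ratio was 0.19 in Pi16 Dpp4 cells and -0.08 in Col15a1 cells. Without the top cell of each library it was 1.23 in members. The ratio was 1.25 in members with UMIs of both Gdf10 and Fmo2 and 0.04 in those with Gdf10 alone, an alternative added after seeing the data. Members with both genes made up 56.6% in saline and 73.2% in cold, and the part of this difference in the Gas6 ratio was not tested. The CL level of 1259 CPM lay near that of saline.

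C7 was 2.06-fold higher in cold, at 632 CPM in 54 cells against 307 CPM in 37 cells, and its log2 ratio was 0.30 in Pi16 Dpp4 cells and -0.56 in Col15a1 cells. C7 lay at the limit, with a log2 ratio of 1.04 that was 0.94 with both genes required. Clu, the secreted chaperone clusterin, stood at 55.2 CPM in saline, 161 in cold and 44.8 in CL, and its log2 ratio for cold over saline was 1.55 in members, -0.30 in Gdf10-only members and 1.02 in Pi16 Dpp4 cells. Col15a1 cells held 1 UMI of it in each library. Igfbp3, a carrier of insulin-like growth factors and a gene of the F3 group, stood at 38.4 CPM in saline, 279.5 in cold and 97.2 in CL, a log2 ratio of 2.86 (2.11 to 3.72) for cold. Its UMIs lay in 17 of 71 cold members, 40 of the 123 in 1 cell, and the ratio was 2.60 without the top cells. In Pi16 Dpp4 cells the ratio was 1.38 and in Col15a1 cells -0.16. Gnai1, an inhibitory G protein subunit, and Ckb, the brain-type creatine kinase, were 3.22-fold and 2.47-fold higher in cold, with UMIs in 27 and 40 cold members. In Gdf10-only members the log2 ratio was 0.70 for Gnai1, short of 2-fold, and 1.55 for Ckb.

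Several of the 10 highest genes rested on few cells. Myoc, which encodes myocilin, had 0 UMIs in saline and 57 in cold, at least 18.0-fold higher against a floor of 3 UMIs per library, but they lay in 3 cells and 39 of them in 1. Cilp had a log2 ratio of 2.06 that turned to -0.49 without the top cell. Mmp3, a matrix metalloproteinase, stood at 743 CPM in saline and 1559 in cold, a log2 ratio of 1.07 that no longer passed 2-fold without the top cell (0.92), with each cell weighted equally (0.67) or with both genes required (0.66). Smoc2, a secreted calcium-binding modulator of growth factor signals, had 1.10 with and 0.73 without it.

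Genes lower in cold were led by Has1, Il6 and Ptgs2. Has1, which makes hyaluronan, had 172 UMIs in 28 cells in saline, 12 UMIs in 6 cells in cold and 40 UMIs in 12 cells in CL, or 412, 27.3 and 149 CPM. Cold was thus 15.1-fold below saline, with a log2 ratio of -3.92 (-4.90 to -3.08). Il6, an inflammatory cytokine, stood at 386 CPM in saline, 36.4 in cold and 157 in CL, and its cold interval of 20.8 to 59.0 CPM lay below the saline interval of 329 to 451 CPM. Ptgs2, the inducible cyclooxygenase, stood at 221, 20.5 and 52.3 CPM. Tnfaip6, a hyaluronan-binding protein induced by inflammatory signals, stood at 681, 152 and 385 CPM and was found in 44, 29 and 29 members. Cxcl10, a chemokine induced by interferons, stood at 127, 9.09 and 463 CPM, with its 4 UMIs in cold in 1 cell.

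The inflammatory progenitor list holds Il6, Has1 and Tnfaip6 of the genes above, so it overlaps with them. With a minimum of 20 UMIs in either library, 11 of its 13 genes were measured, 8 were at least 2-fold lower in cold and the median log2 ratio was -1.59, beside 0.07 over all 3110 genes, of which 4.41% were lower and 3.99% higher. The 8 were Il6, Ccl2, Ccl7, Cxcl1, Cxcl2, Has1, Tnfaip6 and Ptx3. Il6, Has1 and Cxcl2 reached 20 UMIs through saline alone, where they are high. The filter thus partly sets the count and the median, which are given as no support. Cxcl2 lost the call without its top saline cell, which held 30 of 35 UMIs, at a log2 ratio of -0.81. In Pi16 Dpp4 cells none of the 8 was 2-fold lower in cold: the log2 ratio was -0.15 for Il6, 1.13 for Ccl2, 0.26 for Ccl7, 0.25 for Cxcl1, -0.65 for Cxcl2, -0.90 for Has1, -0.42 for Tnfaip6 and 0.04 for Ptx3. In Col15a1 cells it was -2.43 for Il6, 0.84 for Ccl2, -1.52 for Ccl7, -1.15 for Cxcl1, -4.25 for Cxcl2 (1 UMI in cold), -2.62 for Has1, -1.76 for Tnfaip6 and -2.05 for Ptx3. The chemokine gene Ccl2 was thus lower in cold in members, at -1.49, and above 0 in both other populations. Nfkbia, the inhibitor of NF-κB, and Il1r1 had log2 ratios of -0.42 and -0.53 in members, and Csf1 had 0.31.

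**Figure D3:**
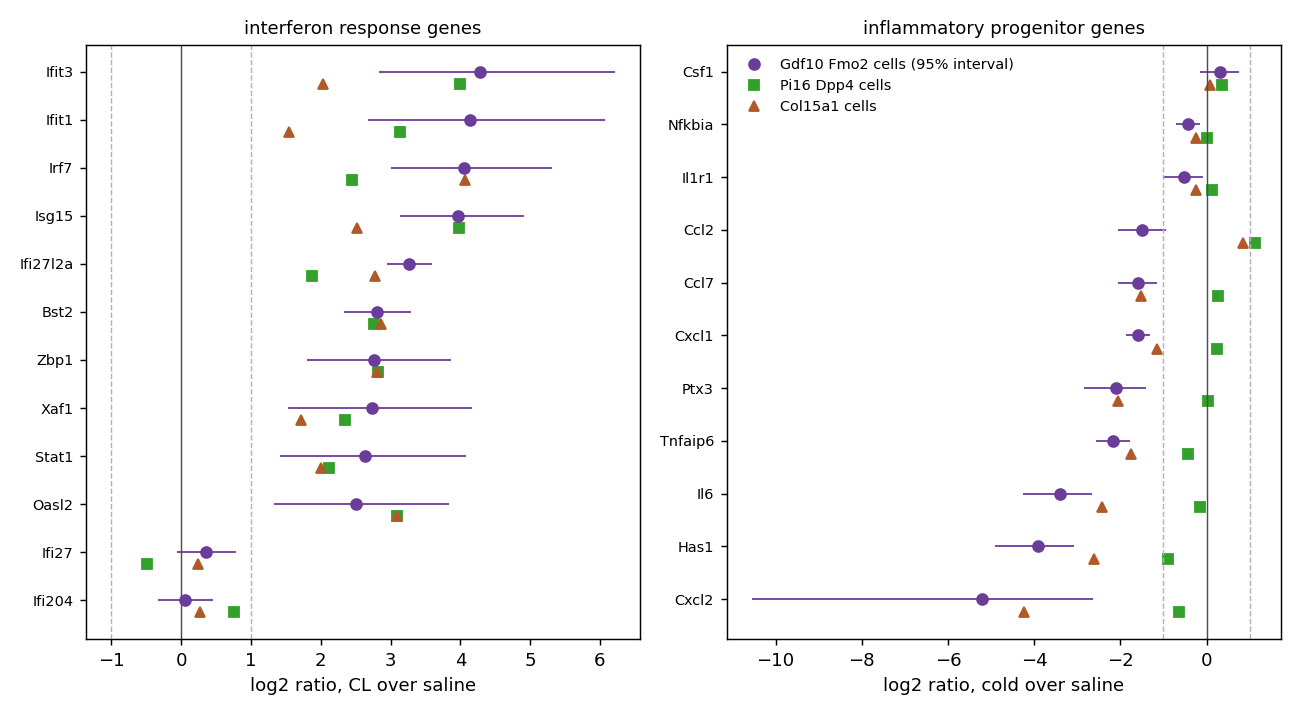
Log2 ratios of CL over saline for the 12 interferon response genes measured (left) and of cold over saline for the 11 inflammatory progenitor genes measured (right), in members with exact 95% intervals (circles) and in Pi16 Dpp4 (squares) and Col15a1 cells (triangles), with dashed lines at 2-fold. On the left 10 genes lie right of the 2-fold line in all 3 populations, and on the right 8 genes lie left of it in members, where the squares of Pi16 Dpp4 cells stay nearer to 0.

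The other genes among the 10 lowest in cold were Hk2, Ugdh, Trib1, Irs2 and Mt2. Hk2, hexokinase of glycolysis, had 63 UMIs in saline, 11 in cold and 23 in CL, a log2 ratio of -2.60 for cold, and Ugdh, which makes the UDP-glucuronate used for hyaluronan, stood at 489, 125 and 247 CPM. Trib1, a pseudokinase, stood at 197, 40.9 and 52.3 CPM, a log2 ratio of -2.27 for cold over saline. Irs2, an adaptor of insulin and cytokine receptors, stood at 163, 31.8 and 29.9 CPM, and the log2 ratio of CL over cold was -0.09 (-1.55 to 1.26). Mt2, a metallothionein, stood at 837, 239 and 318 CPM, and it was also lower in cold in both other populations, with log2 ratios of -1.12 and -1.34. Of 12 glucocorticoid response genes measured, 4 were at least 2-fold lower in cold and 2 in CL, where 4.41% of all genes at 20 UMIs were lower in cold and 6.21% in CL. They were Cdkn1a, Mt1, Mt2 and Errfi1 in cold and Cdkn1a and Mt2 in CL, and the medians of the list were -0.49 and -0.62. All 10 collagen genes measured were below 0 in cold, with a median of -0.41 beside 0.07 over all genes. Among them only Col16a1 was past 2-fold. For CL over cold 9 were measured, so not all 10 reached 20 UMIs outside saline, and the filter partly sets this count. Both cold-inducible RNA-binding genes were above 0 in cold: Rbm3 at 0.91 (0.53 to 1.29) and Cirbp at 0.80 (-0.28 to 1.95).

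**Figure D4:**
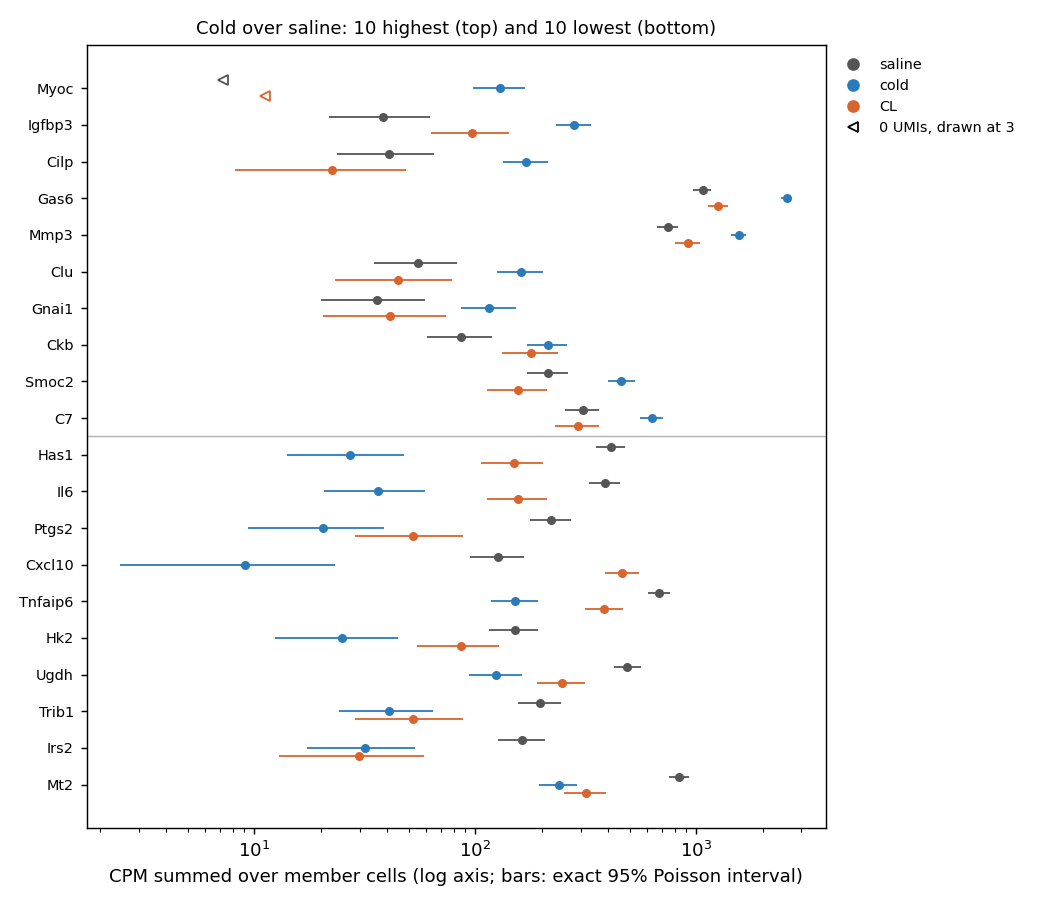
CPM on a log axis of the 10 genes highest (top) and 10 lowest (bottom) in cold over saline in members, with exact 95% Poisson intervals for the saline, cold and CL libraries and open triangles at a floor of 3 UMIs where a library had 0. Has1, Il6 and Ptgs2 have cold intervals below saline by more than their width, and for Gas6 the cold level of 2568 CPM lies right of 1069.6 in saline and 1259 in CL.

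CL went with interferon response transcripts and Saa3 in the members. Of 1029 genes that reached 50 UMIs in either library, 49 were at least 2-fold higher in CL than in saline (4.76%) and 47 were at least 2-fold lower (4.57%). At the minimum of 20 UMIs, 5.2% of 2674 genes were higher and 6.21% lower. Of the 18 interferon response genes, 12 were measured at that minimum, 10 of these were at least 2-fold higher and all 12 were above 0, with a median log2 ratio of 2.78 beside 0.02 over all genes. The filter partly sets these values: only Bst2, Ifi27, Ifi27l2a and Ifi204 reached 20 UMIs in saline or cold, and the other 8 were measured through CL alone, where they are high, so the count and the median are given as no support. The log2 ratios of the 4 were 2.80, 0.36, 3.27 and 0.06. The saline sums are shared by the comparisons with cold and with CL.

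Isg15, a ubiquitin-like protein induced by interferons, had 13 UMIs in 11 cells in saline, 8 UMIs in 8 cells in cold and 130 UMIs in 25 of 45 cells in CL, or 31.2, 18.2 and 486 CPM. Its log2 ratio for CL over saline was 3.96 (3.14 to 4.91). Irf7, the transcription factor that amplifies interferon responses, stood at 19.2, 6.82 and 318 CPM and was found in 24 CL members. Ifit3, an antiviral protein, stood at 9.59, 2.27 and 187 CPM with 21 CL members. Bst2, tetherin of the cell surface, stood at 113, 56.8 and 785 CPM, and Ifi27l2a at 225, 116 and 2171 CPM. CL was above the other libraries by more than the counting intervals for all 5 genes, and cold was the lowest library for each. Ifi27 and Ifi204 were the 2 measured genes that did not pass. The other populations had the same direction: in Pi16 Dpp4 and Col15a1 cells the log2 ratio was 3.98 and 2.52 for Isg15 and 2.76 and 2.87 for Bst2.

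The interferon-stimulated response element, searched as GAAA, any 2 bases and GAAA again on either strand, was looked for in promoter windows from RefSeq (GRCm38.p6), each with 250 bases before and 50 after a transcription start. It was present in 3.44% of all 32851 windows. Of the 10 genes highest in CL over saline, 8 had a window and 4 of these held it, as did none of the 8 windowed genes among the 10 lowest. The 4 stretches from base -170 to -51 before the start are shown because they belong to the 4 of those 8 windowed genes that hold the motif. They are written 5′ to 3′ on the strand of the gene, with matches in capitals, overlapping matches joined, and matches on the opposite strand in their reverse letters. Saa3 lies on the minus strand at chr7:46715727-46715846, Isg15 on the minus strand at chr4:156200869-156200988, Ifit3 on the plus strand at chr19:34583359-34583478 and Bst2 on the minus strand at chr8:71537523-71537642.
Saa3: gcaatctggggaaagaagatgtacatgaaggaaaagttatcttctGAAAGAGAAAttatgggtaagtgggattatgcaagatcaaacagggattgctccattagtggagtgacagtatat
Isg15: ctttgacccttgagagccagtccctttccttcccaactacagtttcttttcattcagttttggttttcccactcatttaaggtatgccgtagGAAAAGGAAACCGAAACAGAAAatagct
Ifit3: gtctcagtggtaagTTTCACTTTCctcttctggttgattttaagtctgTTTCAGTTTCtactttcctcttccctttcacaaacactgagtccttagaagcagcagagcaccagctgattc
Bst2: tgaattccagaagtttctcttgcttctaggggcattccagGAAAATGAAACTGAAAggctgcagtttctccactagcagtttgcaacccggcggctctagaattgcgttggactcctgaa
Isg15 held 3 overlapping matches, Bst2 held 2 overlapping ones, Ifit3 held 2 apart on the opposite strand, and Saa3 held 1. A match is a description of the letters and no sign that a factor was bound.

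Saa3, an acute-phase serum amyloid protein, had the largest CL ratio. It had 3 UMIs in 3 cells in saline, 6 UMIs in 1 cell in cold and 368 UMIs in 19 of 45 cells in CL, or 7.19, 13.6 and 1375 CPM, with a log2 ratio of 7.58 (6.02 to 9.86) for CL over saline. The top cell held 87 of these UMIs, and without the top cells the ratio was 7.77. Saa3 was also high elsewhere in that library, at 766 CPM in Pi16 Dpp4 cells, 1493 CPM in Col15a1 cells and 3654 CPM in all barcodes outside the stromal gate. After thinning, 35.1% of CL members (20.2 to 52.5%) and 17.2% of CL B cells (8.59 to 29.4%) held a Saa3 UMI, so the 2 shares overlap within counting error. For Isg15 the thinned shares were 40.5% of CL members and 41.4% of CL B cells, and B cells can make this transcript themselves. How much of these UMIs was free RNA was not tested.

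Cxcl9, a chemokine induced by interferon gamma, stood at 16.8 CPM in saline, 6.82 in cold and 773 in CL, but 145 of its 207 CL UMIs lay in 1 of 7 cells. Its log2 ratio was 5.53, and 5.01 without the top cells. Timp1, a secreted inhibitor of metalloproteinases, stood at 163, 216 and 699 CPM and was found in 34 CL members, and Ly6e, a cell surface protein induced by interferon, at 257, 252 and 1136 CPM in 42 CL members. Plac8 stood at 264, 148 and 1158 CPM. For Timp1 the level outside the stromal gate was 98.8 CPM in CL, below that of members, whereas for Ly6e it was 1655 CPM and for Plac8 2128 CPM. Sfrp2 was 2.24-fold higher in CL than in saline, with log2 ratios of -0.18 and 0.42 in Pi16 Dpp4 and Col15a1 cells.

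**Figure D5:**
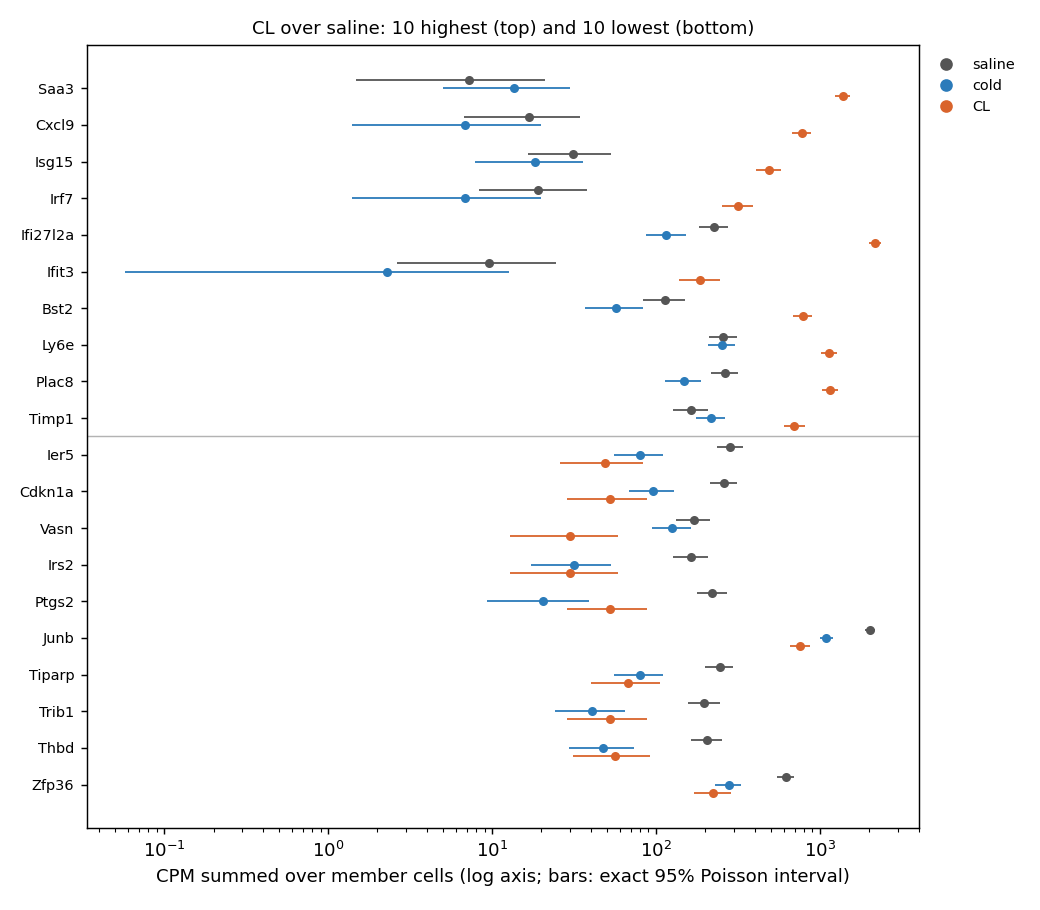
CPM on a log axis of the 10 genes highest (top) and 10 lowest (bottom) in CL over saline in members, with exact 95% Poisson intervals for the saline, cold and CL libraries. Isg15, Irf7, Ifit3 and Bst2 have CL intervals right of both other libraries, and among the lower genes Irs2, Tiparp, Trib1 and Thbd have cold and CL intervals that overlap.

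Immediate early genes had lower levels in CL. All 17 immediate early genes measured were below 0 in CL over saline, 6 of them at least 2-fold, with a median of -0.85, where 6.21% of all genes at 20 UMIs were 2-fold lower and the median of all genes was 0.02. In cold over saline 14 of 17 were below 0 and 4 at least 2-fold lower, with a median of -0.40, where 4.41% of all genes were 2-fold lower and their median was 0.07. Only 16 of the list were measured for CL over cold, so not all 17 reached 20 UMIs outside saline. These counts and medians are thus partly set by the filter and are no support. Junb, a subunit of the AP-1 transcription factor, stood at 2012 CPM in saline, 1093 in cold and 755 in CL. Zfp36, an RNA-binding protein that destabilises inflammatory transcripts, stood at 619, 277 and 224 CPM. Fos, a partner of Junb, stood nearer to its saline level, at a log2 ratio of -0.45 for CL and 0.01 for cold. Ier5, a stress-induced early gene, was 5.83-fold lower in CL than in saline, and Cdkn1a, the cell cycle inhibitor p21, was 4.95-fold lower. For Cdkn1a the log2 ratio was -2.31 in members, -0.35 in Pi16 Dpp4 cells and -1.92 in Col15a1 cells. Early genes also respond to tissue dissociation, and handling of the 3 tissues cannot be told apart from treatment.

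Vasn, which encodes a secreted trap of TGF-β, stood at 170.3 CPM in saline, 125 in cold and 29.9 in CL, with a log2 ratio of -2.51 for CL and -0.45 for cold over saline. The laminin chains Lama2 and Lamb1 likewise had log2 ratios of -1.27 and -1.57 for CL over saline and -1.26 and -1.38 for CL over cold. Lama2 stood at 333, 332 and 138 CPM, and its log2 ratio for CL over saline was -1.19 in Pi16 Dpp4 and -1.10 in Col15a1 cells.

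Between the 2 stimuli, 45 of 1096 genes were at least 2-fold higher in CL than in cold (4.11%) and 36 were at least 2-fold lower (3.28%), and at 20 UMIs 4.04% of 2868 genes were higher and 5.16% lower. Interferon genes were higher in CL for 10 of 12 measured, with a median log2 ratio of 4.01, and the same 8 were again measured through CL alone, so this too is no support. The 4 others had log2 ratios of 3.79 for Bst2, 0.07 for Ifi27, 4.23 for Ifi27l2a and 0.67 for Ifi204. Of the inflammatory progenitor genes, 7 of 11 were at least 2-fold higher in CL, with a median of 1.48. Il6 and Has1 reached 20 UMIs there through CL alone, so this count is no support either. Lower in CL were Gsn, Cntfr and Smoc2 beside Myoc and Cilp, which rest on few cells. Gsn, the actin-severing protein gelsolin, stood at 29138 CPM in saline, 43455 in cold and 19370.0 in CL and was found in every member. Its CL over cold log2 ratio was -1.17 in members. The cold over saline ratio was 0.58 in members, 0.49 in Pi16 Dpp4 cells and 0.38 in Col15a1 cells. Cntfr, a receptor subunit for ciliary neurotrophic factor, stood at 50.4, 127 and 14.9 CPM, with UMIs in 16, 33 and 4 members.

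Of 11 stromal chemokine and cytokine genes measured for cold over saline, 4 were at least 2-fold lower (Ccl2, Ccl7, Cxcl10 and Il6) and none higher. Their median was -0.53, beside 0.07 over all genes at 20 UMIs, of which 4.41% were lower. For CL over saline, 4 of 13 were higher (Ccl8, Cxcl9, Cxcl10 and Il33) and Il6 was lower, where 5.2% of all genes were higher and 6.21% lower. The median was 0.19, beside 0.02 over all genes. For CL over cold 7 of 13 were higher, where 4.04% of all genes were, with a median of 1.26 beside -0.02 over all genes. Ccl2, Ccl7 and Il6 stand in the inflammatory list as well. Cxcl9 and Il33 were measured through CL alone, and Il6 and Cxcl10 in cold over saline through saline alone. The filter thus partly sets these counts and medians, which are no support. Ccl8, a monocyte chemoattractant, had 36 UMIs in saline, 37 in cold and 54 in CL, and Il33, an alarmin cytokine, had 10, 8 and 20 UMIs.

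Several lists had few measured genes. None of the 8 thermogenic genes and none of the 14 cell cycle genes reached 20 UMIs in any library of members. The CL library alone held UMIs of the proliferation gene Mki67, 16 in 2 cells. Of 4 adrenergic and cAMP-response genes measured, 2 were at least 2-fold lower in cold (Nr4a1 and Fosl2) and 2 in CL (Nr4a2 and Nr4a3), and none was higher in either. All 4 were below 0 in both, with medians of -0.96 in cold and -0.96 in CL, beside 0.07 and 0.02 over all genes, of which 4.41% and 6.21% were lower at that minimum. Only 3 of the list were measured for CL over cold, so not all 4 reached 20 UMIs outside saline. The filter thus partly sets these values, which are no support. All 5 BMP and TGF-β target genes measured were below 0 in CL over saline, with a median of -0.58 beside 0.02 over all genes, and none passed 2-fold. For CL over cold 4 of them were measured, so not all 5 reached 20 UMIs outside saline, and these values are no support. Of 6 BMP and TGF-β receptors none passed 2-fold in any comparison. Of 13 modulators Smoc2 alone was higher in cold and Ltbp4 alone lower in CL over saline, where 3.99% of all genes were higher in cold and 6.21% lower in CL. Smoc2 no longer passed 2-fold without its top cell, as given above. The median over 12 elastic fibre genes was 0.11 in cold and 0.08 in CL, with Efemp2 alone past 2-fold in CL, where 5.2% of all genes were higher. The 6 adipogenic genes measured stood near 0 at the median in both comparisons, with Cebpb lower in both and Fabp4 higher in cold at 1.99, which was 0.75 without its top cell. Over all genes, 4.41% were lower and 3.99% higher in cold, and 6.21% were lower in CL.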

How the data were processed

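The data were 10x Chromium 3' v3 single-cell libraries, 1 per treatment, deposited by the authors as raw counts: whole UMIs per gene and barcode for 28692 genes. Per the file headers the count matrices were made with Cell Ranger 3.0.2, and the submitters' processing notes name the build mm10. Gene annotation and cell calling settings are not given in the sources used here. Reads of overlapping or antisense genes and of near-identical copies such as the globin genes cannot be separated further here.

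Barcodes were gated on raw UMIs by the rule in the opening, and the Pi16 Dpp4 and Col15a1 populations by the same limits with their own sum of at least 2. No doublet step is part of the rule, and leaving out barcodes by Scrublet score (scanpy 1.11.5) at an expected rate of 3.09 to 5.36% removed 315, 119 and 360 barcodes and 1, 1 and 0 members. UMIs were summed over cells and scaled to CPM. Levels carry exact Poisson intervals, ratios exact conditional binomial intervals and shares Clopper-Pearson intervals, all at 95% and for counting error only (numpy 2.4.6, scipy 1.17.1, pandas 2.3.3, matplotlib 3.10.9). PCR copies are collapsed by UMI. The scripts were tested on simulated data.

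Library comparisons ran over all genes other than those of the gate that reached 50 UMIs in either library, or 20 for lists, with calls past 2-fold by size. A library at 0 UMIs was set to a floor of 3. Ranked genes also had a CPM of at least 0.25 of that in barcodes outside the stromal gate. The ranking left out genes of the gate, predicted and sex-linked genes, antigen receptor genes (B and T cell), globin genes, and those of mitochondria and ribosomes. The 10 highest and 10 lowest for cold and for CL over saline and 5 and 5 for CL over cold were taken by the interval bound nearer to 0. For the other populations the 15 highest and 10 lowest were taken, within members 6 and 6, and 8 genes most like Gdf10 and Fmo2. Others were named from lists, and Cst3, Sfrp2 and Mki67 were added after their values were seen. The members and the gene lists were chosen with earlier results of these data known. Alternatives covered scaling, cell weights, gate limits, doublets and UMI minimums. Results on some genes are not reported here.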

Additional observations from a re-analysis of the deposited data

How the results depend on the processing

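Of 600 ratios between libraries (50 ranked genes under 12 alternatives), 527 stayed within the counting interval of the reported value, 68 lay outside it and 5 changed sign. The 5 were Cilp for cold over saline without its top cell (-0.49) and at a 5% mitochondrial limit (-0.30), Clu for cold over saline in Gdf10-only members (-0.30), and Cilp for CL over cold with a sum of 3 or more (0.84) or both genes required (0.90). Of 100 ratios against the other populations, none changed sign and 99 stayed near the reported value. Counts of genes past 2-fold depended on the UMI minimum: at 20 UMIs they were 124 higher and 137 lower for cold over saline, 139 and 166 for CL over saline and 116 and 148 for CL over cold, and at 100 UMIs 7 and 27, 26 and 25, and 22 and 15. With both genes required, cold over saline had 23 lower, CL over saline 22 higher and 13 lower, and CL over cold 24 higher and 18 lower. In Gdf10-only members, an alternative added after seeing the data, 8, 28 and 26 genes were higher in the 3 comparisons. Leaving out the top 5% of UMI totals gave 32 higher for CL over saline and 23 lower for CL over cold, and a sum of 3 or more gave 30 lower for CL over saline. Fewer cells, and so fewer genes at the minimum, are part of how these alternatives are built. The share of stromal cells was 5.24% in saline with a sum of 3 or more, and 3.95%, 10.6% and 3.37% in saline, cold and CL with both genes required. Genes higher than both other populations numbered 11 at a 5% mitochondrial limit and 36 at 20 UMIs. The planned comparison of Fmo2-only with Gdf10-only members was not run, as 1, 2 and 3 cells held Fmo2 alone. No paired analysis was possible because each treatment has 1 library. With 45 to 76 members per library, genes under 20 UMIs cannot be read.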
